A study of Mus musculus with 6 samples.

Results

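Pancreatic islets of mice were compared for 35 genes of DNA replication and mitosis, in a list fixed by symbol. The rule sets no threshold on a measured value, but the list was drawn up with earlier results of these data known. Of these, 13 act at the entry into S phase or in DNA synthesis, and 22 act mainly from G2 through mitosis, with Ccna2 and Mki67, active over several phases, counted among the mitosis genes. All 35 were found among the 55401 gene identifiers of the count table. The mice were male, of the strain C57BL/6 and about 20 weeks old, and the 3 KO libraries carry the genotype Pdgfra fl/fl Pdx1-Cre+ and the 3 control libraries Pdgfra fl/fl Pdx1-Cre-. Pdgfra, which encodes platelet-derived growth factor receptor alpha, was thus floxed on 2 copies in both groups, and no library came from mice with Cre and unfloxed Pdgfra, so that an effect of Cre and one of the deletion cannot be told apart. Pdx1 is active in the progenitors of the whole pancreas, so its promoter can drive Cre in acinar and duct cells as well as in beta cells. The labels give the tissue as islet and the cell type as beta cell and name no sorting step.

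Cells prepare to divide in steps that each have their own transcripts. In late G1, cyclin E with Cdk2 starts the programme of S phase, the Mcm2 to Mcm7 proteins form the ring-shaped helicase that opens DNA, and ribonucleotide reductase and thymidylate synthase supply the building blocks. In G2 and mitosis, cyclins A and B with Cdk1, the Aurora and Polo-like kinases, the kinetochore proteins and the spindle checkpoint carry the chromosomes through division. Beta cells of adult mice divide rarely, and platelet-derived growth factor signalling is known from mouse work as one of the inputs that sustain their division in young animals.

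The KO libraries held between 18247741 and 25039394 counts and the control libraries between 15026094 and 25299689. Pdgfra itself had 93, 25 and 125 counts in KO 1, 2 and 3, against 42, 88 and 116 counts in controls 1, 2 and 3. Its log2 fold change was -0.26 with an SE of 0.34 (edgeR adjusted p = 0.869), and counts summed over whole genes also include transcripts that lack only deleted exons, so this gene gave no check of the genotype labels. All 10 beta-cell markers were detected in every library, with a summed level of 104382 to 148019 CPM (read counts scaled to library size with TMM factors) in KO and 96289 to 125607 CPM in controls. The 12 acinar markers, from the digestive-enzyme cells around the islets, summed to 132709 to 260027 CPM in KO and 150107 to 387332 CPM in controls. In every library the acinar sum was above the beta-cell sum, most in control 1, at 387332 against 96289 CPM. Markers of T cells summed to at most 0.609 CPM in any KO library and 0.408 CPM in any control, and each of them was at 0 counts in at least 1 library. A ribosomal RNA locus, CT010467.1, took 5.36%, 12.6% and 18.5% of counts in KO 1, 2 and 3, against 4.38%, 3.32% and 4.51% in controls 1, 2 and 3.

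Per kilobase of exon, the members spanned a wide range of levels, and replication genes stood above most mitosis genes in both groups. Pcna, the sliding clamp of DNA polymerases, was highest, at a mean of 5.72 CPM per kilobase in KO and 6.66 in controls. Bub3, a protein of the spindle checkpoint, came next at 5.28 CPM per kilobase in KO and 3.51 in controls. Mcm6, Mcm4 and Mcm7 followed with means over all 6 libraries of 2.19, 2.13 and 1.72 CPM per kilobase. At the low end were Bub1, a checkpoint kinase, with 0.0586 CPM per kilobase in KO and 0.102 in controls, and Kif11, the motor that pushes spindle poles apart, with 0.0695 in KO and 0.105 in controls. The median member of the S phase set had 457 counts over all 6 libraries, against 136 for the median mitosis member, so the mitosis genes were measured with a wider error. The median SE of the log2 fold change was 0.18 for S phase and 0.34 for mitosis members.

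**Figure D1:**
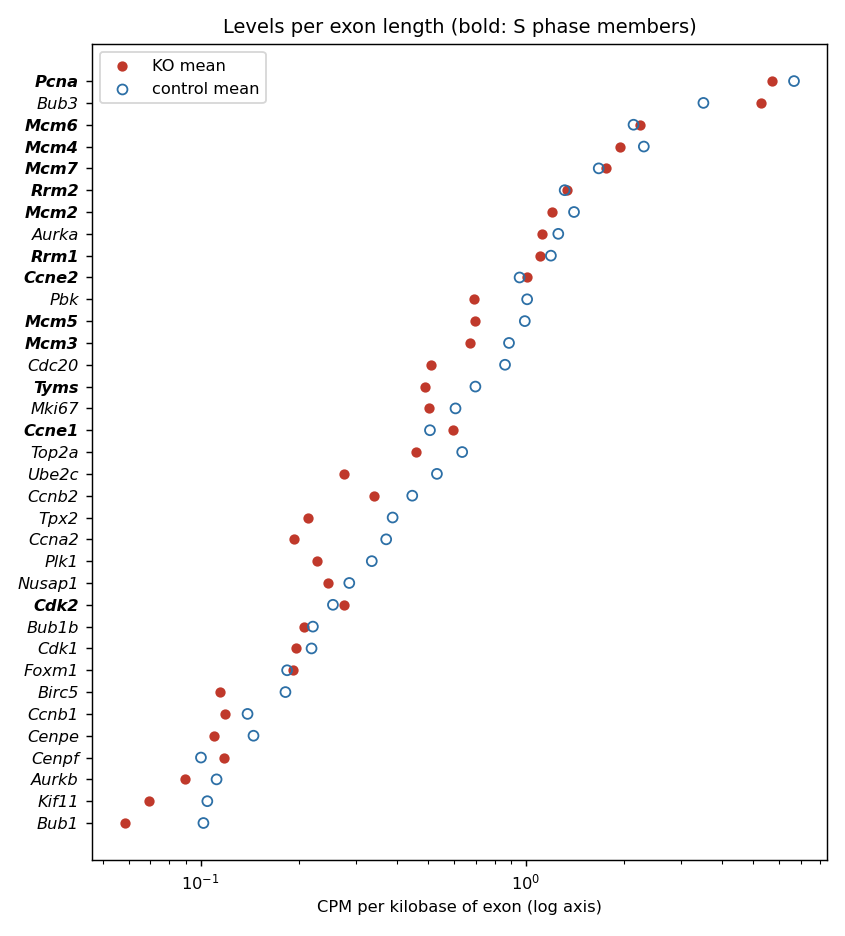
Mean level of each of the 35 members in KO (filled circles) and control libraries (open circles), in CPM per kilobase of exon on a log axis, with S phase members in bold. Pcna and Bub3 lead, and mitosis members fill most of the lower ranks.

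No S phase or mitosis member passed the test over all genes. After a filter on low counts, 32 of the 35 members entered the test, namely all 13 S phase and 19 mitosis members. Bub1, Aurkb and Birc5 did not. The edgeR quasi-likelihood test called 0 of the 32 at an adjusted p under 0.05, where 10 of all 14212 genes tested (0.0704%) were called, and DESeq2 called 1 of them, Bub3. At an unadjusted p under 0.05, 6 members were lower and 1 was higher in KO, beside 2.54% of all genes lower and 4.83% higher. The KO and control libraries did not overlap in 7 members that were lower in KO, namely Mcm3, Mcm5, Tyms, Mki67, Top2a, Ccna2 and Kif11, and in 1 that was higher, Bub3. Over all genes tested, 5.94% were lower in KO without overlap and 7.94% were higher. The sample titles number male mice within each group, but do not say outright that each library came from its own animal. These p-values therefore measure the spread between the libraries, part of which may be technical. In bulk RNA, fewer cells of a type and less RNA per cell cannot be told apart.

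The S phase members were split in direction, with a median slightly below that of all genes. Of the 13 tested, 7 had negative and 6 positive log2 fold changes, with a median of -0.11, beside -0.010 over all 14212 genes, of which 52.2% were negative. All 13 had a 95% interval of the log2 fold change inside -1 to 1. Of the 13, 3 were lower in KO without overlap and 2 were lower at an unadjusted edgeR p under 0.05. By either measure 0 were higher. Over all genes tested, 5.94% were lower and 7.94% higher without overlap, and 2.54% lower and 4.83% higher at that p. Their summed level was 83.7, 79.3 and 71.8 CPM in KO 1, 2 and 3, against 85.7, 92.5 and 79.8 CPM in controls 1, 2 and 3. The sums overlapped, with KO 1 above control 3. The median was -0.052 without control 2, -0.046 without KO 3, -0.18 without KO 1, and 0.095 with the log2 level of the ribosomal RNA locus as a covariate. The part of the ribosomal RNA share in the result was not tested. That share was higher in every KO library than in every control, so it cannot be well told apart from genotype.

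Tyms, which encodes thymidylate synthase, had the smallest p of this set. It stood at 3.49, 2.87 and 2.59 CPM in KO 1, 2 and 3, against 4.17, 4.31 and 4.28 CPM in controls 1, 2 and 3. Every KO library lay below every control, and the controls were close to each other. This gave -0.51 as the log2 fold change, with a 95% interval from -0.92 to -0.10 (SE 0.18, edgeR adjusted p = 0.600). Tyms lies on chromosome 5 from 30058202 to 30073617 (GRCm38). The ribonucleotide reductase genes, which act in the same supply of nucleotides, gave smaller values. Rrm1, the large subunit, had a log2 fold change of -0.11 (SE 0.12) and Rrm2, the subunit made in S phase, one of 0.037 with an SE of 0.24 (edgeR adjusted p = 0.978). Rrm2 was at 3.81, 4.49 and 2.82 CPM in KO 1, 2 and 3, against 4.17, 4.02 and 2.73 CPM in controls 1, 2 and 3, so both groups spread over nearly the same range.

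The 6 subunits of the Mcm helicase had 4 negative and 2 positive log2 fold changes, and none passed the test. Mcm5 was at 3.24, 2.62 and 2.47 CPM in KO 1, 2 and 3, against 3.61, 4.31 and 3.95 CPM in controls 1, 2 and 3, with no overlap (log2 fold change -0.51, SE 0.19, edgeR adjusted p = 0.624). Mcm3 was at 2.60, 1.87 and 3.12 CPM in KO 1, 2 and 3, against 3.13, 3.55 and 3.29 CPM in controls 1, 2 and 3. KO 3 lay just below control 1, and the log2 fold change was -0.38 (SE 0.22, edgeR adjusted p = 0.744). Mcm2 and Mcm4 each had a log2 fold change of -0.22 (SE 0.14 and 0.18). Mcm6 was at 11.98, 9.73 and 9.70 CPM in KO 1, 2 and 3, against 9.63, 10.3 and 10.01 CPM in controls 1, 2 and 3, with KO 1 above the other 5 libraries. The log2 fold change of Mcm6 was 0.070 with a 95% interval from -0.21 to 0.35, and that of Mcm7 was 0.080 (SE 0.14). Mcm7 shares exon bases with Ap4m1 and Cops6 on the other strand, and the strand setting of the counting is not given in the sources used here.

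A ratio of 2 genes within a library is free of the library's scaling. The ratio of Mcm5 to Mcm6, both per exon length, was 0.317, 0.315 and 0.298 in KO 1, 2 and 3, against 0.438, 0.489 and 0.461 in controls 1, 2 and 3. The ratio of Mcm5 to Mcm7 was 0.440, 0.347 and 0.398 in KO 1, 2 and 3, against 0.525, 0.608 and 0.652 in controls 1, 2 and 3. Among the 15 pairs of Mcm genes the groups did not overlap in 4, of which 3 include Mcm5 and the fourth is Mcm3 over Mcm6. Mcm5 and Mcm3 already did not overlap on their own. The share over pairs of other genes was not computed, so the 4 of 15 pairs have no background to be read against. These pairs were singled out after their values were seen and share genes, so no test was made, and a ratio shows unequal change of its 2 genes without saying which one changed.

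The other S phase members showed overlapping groups. Pcna was at 13.7, 15.1 and 12.4 CPM in KO 1, 2 and 3, against 14.9, 18.1 and 14.9 CPM in controls 1, 2 and 3, which gave a log2 fold change of -0.22 with an SE of 0.12 (edgeR adjusted p = 0.736). KO 2 lay just above controls 1 and 3. The kinase gene Cdk2 and its partners Ccne1 and Ccne2 had log2 fold changes of 0.14 (SE 0.26), 0.21 (SE 0.34) and 0.078 (SE 0.17), and none of the 3 had more than 95 counts in a library. Ccne1 varied most among controls, at 0.722, 2.04 and 1.28 CPM in controls 1, 2 and 3.

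Transcription of S phase genes is widely driven by E2F factors, and their promoters often hold an E2F site, which was searched as TTTGGCGC, TTTCCCGC, TTTGCCGC and TTTCGCGC on both strands of windows from 250 bases before to 50 bases after the start (RefSeq, GRCm38.p6). Windows were at hand for 28 members, 11 of S phase and 17 of mitosis. An E2F site stood in 5 of the 11 S phase windows (45.5%) and in 1 of the 17 mitosis members (5.88%), Cdk1, beside 2.6% of all 27025 genes with a window. The 5 are Cdk2, Mcm3, Mcm5, Mcm6 and Mcm7, so that the subunit with the lowest and those with the highest Mcm fold changes both hold it. The 160 bases up to the start are shown for Mcm5 and Mcm6, 1 of the 4 pairs whose ratios did not overlap between the groups, 5′ to 3′ on the gene's strand, with the E2F letters in capitals. Overlapping matches on opposite strands appear as 1 run. A match describes letters in a window and is not evidence of binding.
Mcm5 (GRCm38.p6, chr8:75109349-75109508, plus strand): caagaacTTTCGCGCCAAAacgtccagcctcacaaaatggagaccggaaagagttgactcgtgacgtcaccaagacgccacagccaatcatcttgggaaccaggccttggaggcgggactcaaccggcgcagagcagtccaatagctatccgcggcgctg
Mcm6 (GRCm38.p6, chr1:128359706-128359865, minus strand): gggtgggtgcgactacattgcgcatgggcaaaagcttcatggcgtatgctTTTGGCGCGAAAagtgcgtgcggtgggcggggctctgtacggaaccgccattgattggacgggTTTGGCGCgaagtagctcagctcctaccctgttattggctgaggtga
In Mcm5 the matches begin at positions -153 and -149, counted from the start with -1 as the base before it, and in Mcm6 at -110, -106 and -47.

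Negative log2 fold changes prevailed among the mitosis members, none of which passed the test. Of the 19 tested, 16 were negative and 3, Bub3, Cenpf and Foxm1, were positive, where 52.2% of all genes tested were negative. The median was -0.27, beside -0.010 over all genes. All 22, taken without the filter on low counts, had 19 negative values and a median of -0.36, beside 0.0090 over the 26297 genes of that fit. The negative share over those 26297 genes was not computed. Among other mitosis genes, given below, 18 of 38 tested were negative. Over all 22 members the summed level was 63.6, 68.9 and 57.6 CPM in KO 1, 2 and 3, against 61.9, 60.9 and 54.2 CPM in controls 1, 2 and 3, a ratio of KO to control means of 1.07 with overlapping groups. Bub3 alone held more counts than the other 21 members together in each KO library and fewer in each control. Without it, the sum was 23.8, 32.2 and 23.1 CPM in KO 1, 2 and 3, against 35.9, 38.5 and 28.7 CPM in controls 1, 2 and 3, a ratio of 0.767, so that the direction of the sum turned on Bub3. KO 2 thus lay above control 3, and the groups overlapped. Of the 19 tested members, 6 were highest in control 1 and 9 in control 2, while 6 were lowest in KO 1 and 7 in KO 3.

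Cyclin A2, the partner of Cdk2 and Cdk1 in S phase and G2, had one of the most negative fold changes. Ccna2 had 23, 11 and 20 counts in KO 1, 2 and 3, against 24, 27 and 32 counts in controls 1, 2 and 3. Scaled to library size, that was 0.921, 0.686 and 0.761 CPM in KO, against 1.93, 1.57 and 1.05 CPM in controls. The groups did not overlap, with KO 1 and control 3 the nearest to each other. This gave a log2 fold change of -0.87 with an SE of 0.32 and a 95% interval from -1.59 to -0.15 (edgeR adjusted p = 0.614). At 11 counts the 95% Poisson interval in KO 2 ran from 5.49 to 19.7 counts, which covers counting error only. Ccna2 (chromosome 3, 36564865 to 36572150) shares exon bases with Exosc9 on the other strand.

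Ube2c and Cdc20 belong to the anaphase-promoting complex pathway, which destroys cyclin B to end mitosis. Ube2c, its ubiquitin-conjugating enzyme, was at 0.681, 0.936 and 0.533 CPM in KO 1, 2 and 3, against 2.01, 1.22 and 0.922 CPM in controls 1, 2 and 3. The groups touched, since KO 2 lay just above control 3, and the log2 fold change was -0.91 (SE 0.38, edgeR adjusted p = 0.671). Cdc20, its activator, was at 0.761, 1.68 and 0.419 CPM in KO 1, 2 and 3, against 1.604, 2.04 and 1.19 CPM in controls 1, 2 and 3. Here KO 2 lay among the controls, and the log2 fold change of -0.81 had an SE of 0.46.

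Genes of the chromosomes and the spindle gave values of both small and large error. Top2a, the topoisomerase that untangles sister chromatids, was at 4.17, 4.55 and 3.65 CPM in KO 1, 2 and 3, against 5.86, 6.64 and 4.71 CPM in controls 1, 2 and 3, with no overlap (log2 fold change -0.47, SE 0.18, edgeR adjusted p = 0.639). Tpx2, the spindle factor that activates Aurora A, was at 0.481, 1.497 and 1.03 CPM in KO 1, 2 and 3, against 2.09, 1.92 and 1.45 CPM in controls 1, 2 and 3. KO 2 lay just above control 3, and the log2 fold change was -0.88 (SE 0.38, edgeR adjusted p = 0.674). Kif11 had 9, 10 and 15 counts in KO 1, 2 and 3, against 9, 16 and 21 counts in controls 1, 2 and 3, so its lack of overlap at 0.361 to 0.624 CPM in KO and 0.692 to 0.932 CPM in controls rests on few reads. Mki67, the gene of the Ki-67 antigen, was at 4.37, 5.43 and 5.37 CPM in KO 1, 2 and 3, against 6.34, 6.35 and 5.63 CPM in controls 1, 2 and 3. Its groups did not overlap, but the distance between KO 2 and control 3 was small beside the spread within KO, and the 95% interval of the log2 fold change ran from -0.62 to 0.078.

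The mitotic kinases and the B cyclins did not pass the test. Cdk1, the main mitotic kinase, had a log2 fold change of -0.22 (SE 0.34), and its cyclins Ccnb1 and Ccnb2 had -0.24 (SE 0.37) and -0.27 (SE 0.51). Plk1, the Polo-like kinase, had 10 to 11 counts in KO and 12 to 15 counts in control libraries. Aurka, the spindle-pole Aurora kinase, was at 2.12, 3.81 and 2.59 CPM in KO 1, 2 and 3, against 3.05, 4.02 and 2.47 CPM in controls 1, 2 and 3, with full overlap. Aurkb, the Aurora kinase of the centromere, had 11, 5 and 1 counts in KO 1, 2 and 3, against 5, 5 and 9 counts in controls 1, 2 and 3. The single count in KO 3 had a 95% Poisson interval of 0.0253 to 5.57 counts. Birc5, which encodes survivin in the same centromere complex, had 11, 8 and 6 counts in KO 1, 2 and 3, against 6, 18 and 10 counts in controls 1, 2 and 3. Of the remaining members, the microtubule binder Nusap1, the kinase Pbk and the kinetochore motor Cenpe had log2 fold changes of -0.27 (SE 0.31), -0.58 (SE 0.35) and -0.39 (SE 0.33). Cenpf, a kinetochore protein, and Foxm1, the transcription factor that drives many G2 genes, had positive values of 0.19 (SE 0.32) and 0.058 (SE 0.27).

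Between 14 and 18 mitosis members were negative when any 1 library was left out. The filter on low counts was rerun in each of these fits, so the members tested could differ from those of the fit on all libraries. The 4 with an unadjusted p under 0.05, which are Ccna2, Top2a, Ube2c and Tpx2, became 0 without control 1, without control 2 or without KO 3, and 1 without KO 1. The median was -0.52 without KO 2 and -0.53 without control 3. In the S phase set, the 2 with an unadjusted p under 0.05, Tyms and Mcm5, became 0 without control 2 or control 3, and 1 without KO 3.

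**Figure D2:**
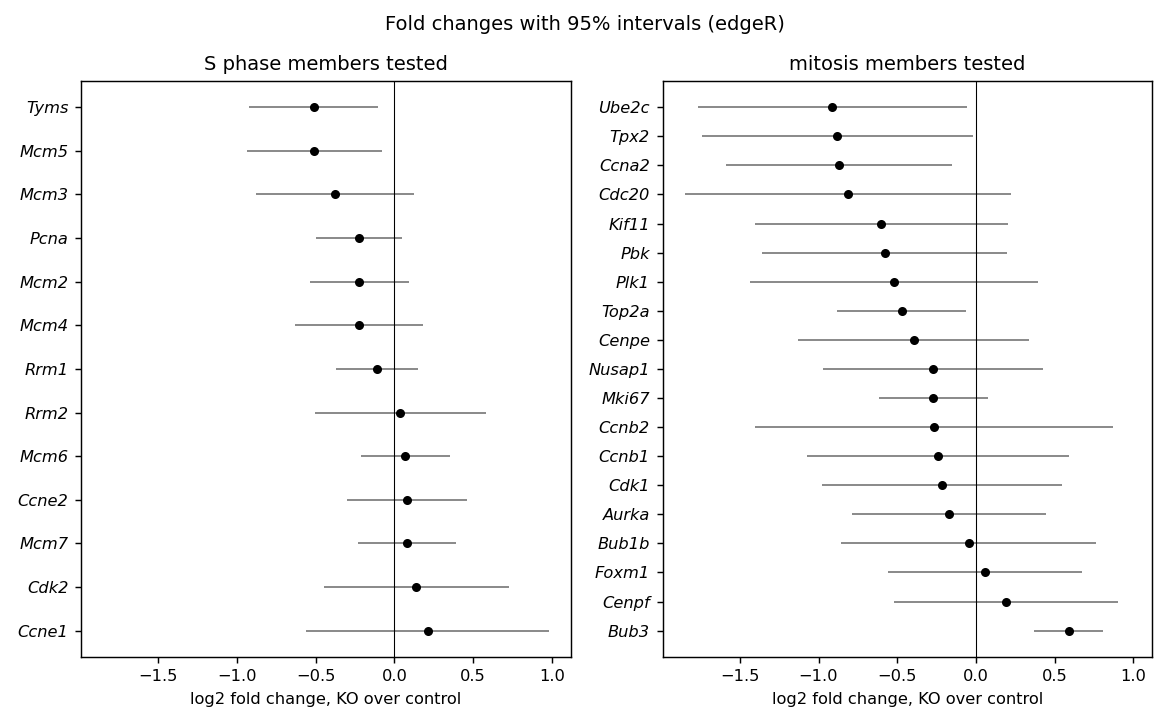
Log2 fold change of KO over control for the 13 S phase and 19 mitosis members that entered the edgeR test, as points with 95% intervals. S phase members lie on both sides of 0, mitosis members mostly below it, and Bub3 alone has an interval above 0.

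Bub3 was the member with the smallest p, and its log2 fold change was positive, as in 9 of the 32 tested members. It encodes the small propeller-shaped protein that carries the kinases Bub1 and BubR1 to unattached kinetochores. It had 994, 588 and 905 counts in KO 1, 2 and 3, against 323, 384 and 773 counts in controls 1, 2 and 3. Scaled to library size, that was 39.8, 36.7 and 34.4 CPM in KO, against 25.9, 22.4 and 25.5 CPM in controls. The lowest KO library was well above the highest control. As a log2 fold change the difference was 0.59 with an SE of 0.099 and a 95% interval from 0.37 to 0.81 (edgeR adjusted p = 0.102), so it missed the threshold over all genes. Bub3 (ENSMUSG00000066979.6) lies on chromosome 7 from 131560222 to 131571895 and shares no exon bases with another gene of the table.

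Whether Bub3 passed depended on the tool, the filter and the covariate. It passed with DESeq2 (adjusted p = 0.00704), where 0.134% of genes were called higher, and with the acinar score as a covariate (edgeR adjusted p = 0.0374), where 0.12% were. With limma-voom and sample quality weights the adjusted p was 0.0211, and without the filter on low counts edgeR gave an adjusted p of 3.03e-04, where 0.0704% and 0.662% of genes were called higher. It missed with limma-voom (adjusted p = 0.141), with RLE normalization, with the replicate block (edgeR adjusted p = 0.0706), with each library left out, and with the ribosomal RNA covariate, where the log2 fold change was 0.68 (edgeR adjusted p = 0.9999). With that covariate the SE of Bub3 was 0.17, and 0 of all genes were called. The ribosomal RNA share was higher in every KO library than in every control, so it cannot be well told apart from genotype. Over all 14 alternatives the log2 fold change of Bub3 stayed between 0.53 and 0.69. Its partners gave no such separation of the groups. Bub1b, which encodes BubR1, was at 0.721, 0.998 and 0.951 CPM in KO 1, 2 and 3, against 0.963, 1.28 and 0.593 CPM in controls 1, 2 and 3 (log2 fold change -0.044, SE 0.36). Bub1 had 5, 6 and 5 counts in KO 1, 2 and 3, against 10, 4 and 9 counts in controls 1, 2 and 3. The difference between Bub3 and its partners was not tested.

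**Figure D3:**
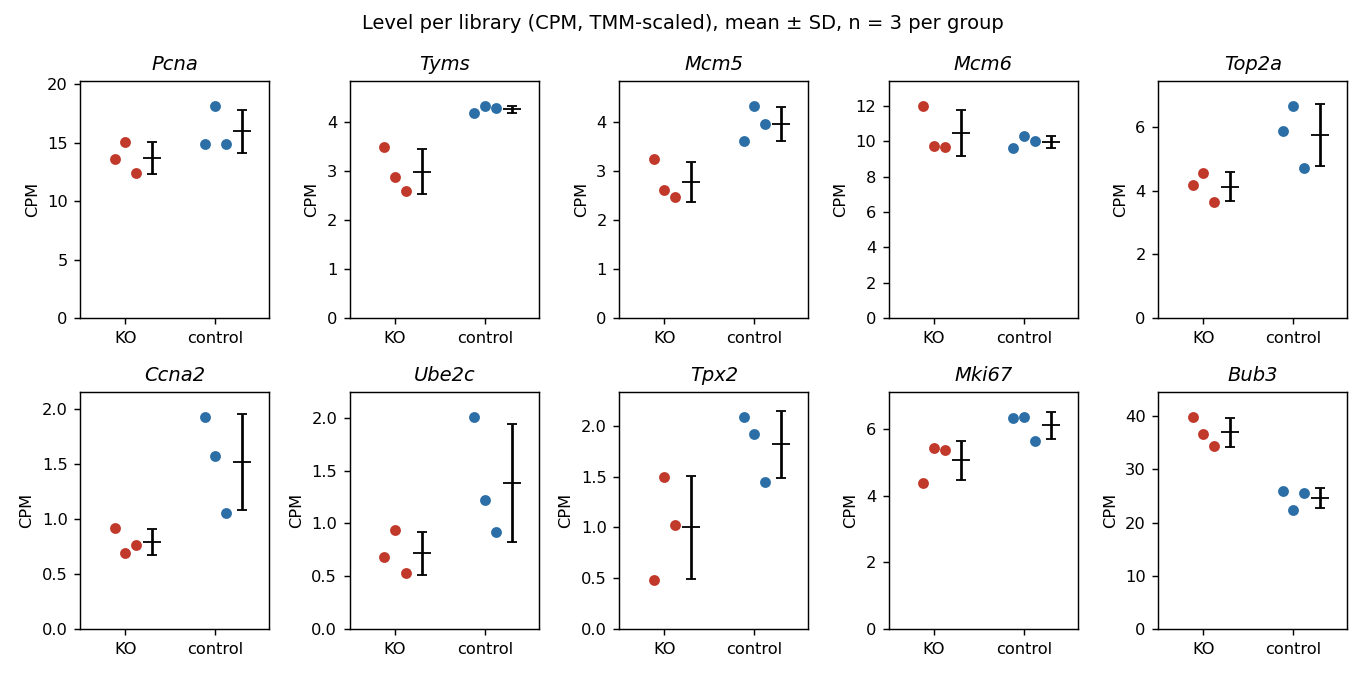
Level of 10 members in each library in CPM, with KO libraries at the left and controls at the right of each panel, and the mean and SD of each group (n = 3). Bub3 is the panel in which all KO points lie above the controls, and the Mcm6 groups overlap where those of Mcm5 do not.

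Many genes of G2 and mitosis share a promoter element, the cell cycle genes homology region (CHR), with the letters TTTGAA, through which repressor complexes keep them silent in resting cells. Searched on both strands of the same windows, it stood in 12 of 17 mitosis members (70.6%) and 1 of 11 S phase members (9.09%), Mcm2, beside 20.2% of all genes with a window. The CCAAT box, often found beside it, was present in 15 of the 17 mitosis members (88.2%) and 9 of the 11 S phase members (81.8%), beside 41.1% of all genes. Bub3 held the CHR letters, as did Top2a, Ube2c, Cdc20 and Mki67, whose log2 fold changes were negative. Cenpf, positive like Bub3, held them as well. A link of the letters to the direction of the values was not tested. For all of these genes but Cenpf the 160 bases up to the start are shown, with the CHR letters or their reverse complement in capitals.
Top2a (GRCm38.p6, chr11:99024190-99024349, minus strand): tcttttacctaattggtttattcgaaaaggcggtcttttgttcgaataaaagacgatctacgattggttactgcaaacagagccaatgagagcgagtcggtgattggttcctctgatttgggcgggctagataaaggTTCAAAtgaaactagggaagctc
Ube2c (GRCm38.p6, chr2:164769769-164769928, plus strand): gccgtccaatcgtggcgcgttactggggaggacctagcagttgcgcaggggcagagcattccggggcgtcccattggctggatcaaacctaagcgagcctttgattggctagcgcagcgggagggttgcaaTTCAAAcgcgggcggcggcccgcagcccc
Cdc20 (GRCm38.p6, chr4:118437344-118437503, minus strand): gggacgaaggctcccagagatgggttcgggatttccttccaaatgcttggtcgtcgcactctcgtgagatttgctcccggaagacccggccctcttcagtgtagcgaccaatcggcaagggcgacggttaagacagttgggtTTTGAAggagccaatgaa
Mki67 (GRCm38.p6, chr7:135716380-135716539, minus strand): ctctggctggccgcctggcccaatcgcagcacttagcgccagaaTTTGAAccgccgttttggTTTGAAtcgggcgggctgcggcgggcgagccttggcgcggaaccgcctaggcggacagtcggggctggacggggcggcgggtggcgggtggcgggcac
Bub3 (GRCm38.p6, chr7:131560210-131560369, plus strand): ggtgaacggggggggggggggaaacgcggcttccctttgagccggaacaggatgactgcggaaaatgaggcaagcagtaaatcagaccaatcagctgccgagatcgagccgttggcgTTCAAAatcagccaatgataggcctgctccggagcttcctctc
The CHR letters begin at positions -179, before the bases shown, and -23 in Top2a, at -29 in Ube2c, -18 in Cdc20, -116 and -98 in Mki67, and -43 in Bub3, for which the first of 2 listed starts was used.

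Among markers of other cells, the acinar sum followed the mitosis sum in part. Within each group, the library with the lowest acinar sum, KO 3 and control 3, also had the lowest mitosis sum without Bub3. The acinar sums were 244103, 260027 and 132709 CPM in KO 1, 2 and 3, against 387332, 238108 and 150107 CPM in controls 1, 2 and 3, and 12 of the 12 markers had negative log2 fold changes. With the acinar score as a covariate, 15 of the 19 mitosis members were negative. The 6 fibroblast markers, which include no member of either set, summed to 163, 40.3 and 209 CPM in KO 1, 2 and 3, against 177, 274 and 132 CPM in controls 1, 2 and 3, with 6 of 6 negative. The 8 endothelial markers summed to 466, 287 and 524 CPM in KO 1, 2 and 3, against 423, 474 and 513 CPM in controls 1, 2 and 3, with 7 of 8 negative. The 7 macrophage markers summed to 103, 86.3 and 97.3 CPM in KO 1, 2 and 3, against 101, 112 and 97.6 CPM in controls 1, 2 and 3, with 6 of 7 negative. KO 2 had the lowest fibroblast, endothelial and macrophage sums of the KO libraries and the highest mitosis sum without Bub3. Among controls the order differed. Control 2 had the highest fibroblast and macrophage sums and also the highest mitosis sum without Bub3, while the endothelial sum was highest in control 3. Of the beta-cell markers 7 of 10 were positive, and of the Schwann cell markers 3 of 4. The 1 PP-cell marker, Ppy, was positive too. Negative values were found in 3 of 4 alpha-cell, 4 of 4 delta-cell, 5 of 7 duct and 4 of 6 pericyte markers. No marker of any of these lists passed the test, none was at 0 in a library, and their part in the mitosis values was not tested. With the ribosomal RNA covariate the mitosis median was -0.38, with 15 of 19 negative.

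**Figure D4:**
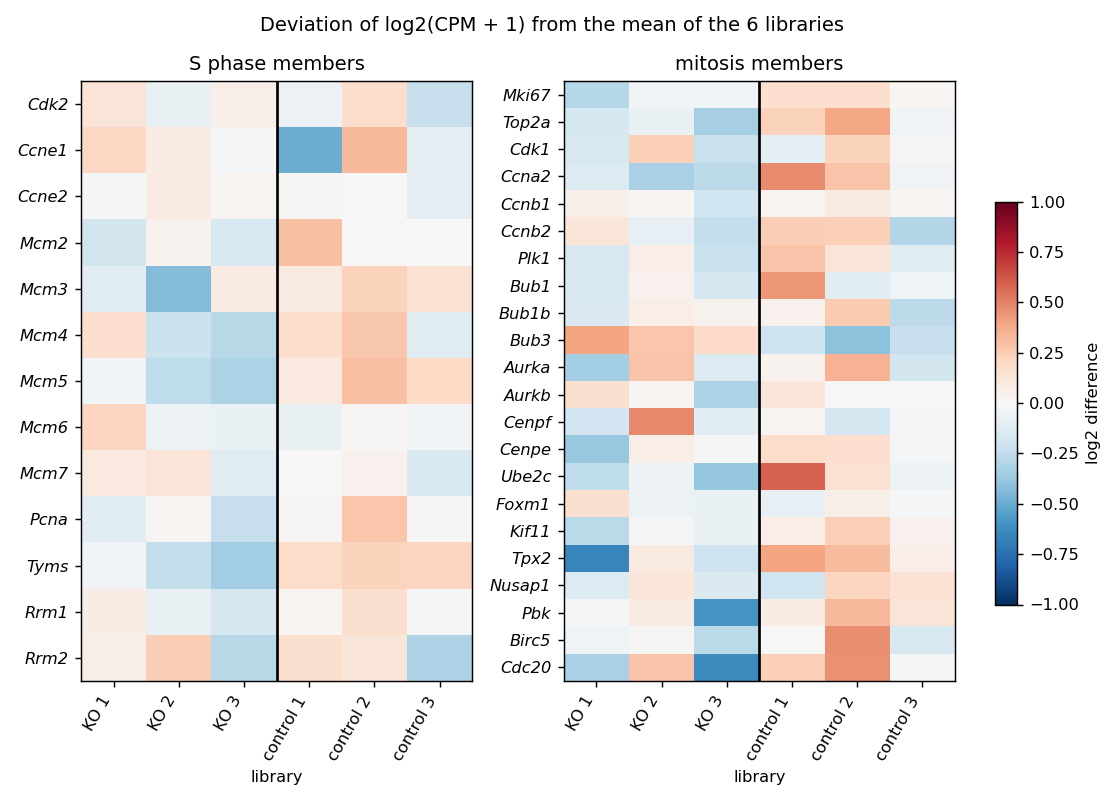
Deviation of log2(CPM + 1) of each of the 35 members from its mean over the 6 libraries, KO at the left of each panel. Mitosis members are mostly above their mean in controls 1 and 2, Bub3 shows the reverse, and S phase rows are mixed.

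Further genes of the same processes, from lists that hold no member, extended the comparison. Of 40 other replication genes 34 were tested, with 23 negative and 11 positive values and a median of -0.11. Of 47 other mitosis genes 38 were tested, with 18 negative and 20 positive values and a median of 0.0090. Negative values were thus less than an even share in this second list, and its difference from the 19 tested mitosis members was not tested. The edgeR test called 0 of the 34 and 0 of the 38, with 3 and 2 at an unadjusted p under 0.05, and DESeq2 called 0 of either list. Of the 3, 2 were lower and 1 was higher in KO, and both of the 2 were lower. Over all genes tested, 2.54% were lower and 4.83% higher at that unadjusted p.

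The genes with the smallest p in these lists were again of both directions, and they were picked by p, so their lack of overlap is part of the choice. Pold2, a subunit of DNA polymerase delta, which works with Pcna, was at 7.41, 8.05 and 5.94 CPM in KO 1, 2 and 3, against 11.1, 10.2 and 8.53 CPM in controls 1, 2 and 3 (log2 fold change -0.47, SE 0.16, edgeR adjusted p = 0.593). Orc6, of the origin recognition complex, was at 8.93, 9.73 and 7.76 CPM in KO 1, 2 and 3, against 4.65, 6.93 and 7.12 CPM in controls 1, 2 and 3 (log2 fold change 0.47, SE 0.18). Orc6 shares exon bases with the far more abundant Vps35 on the other strand, so its reads cannot be assigned with certainty. Dbf4, the activator of the kinase that fires the Mcm helicase, had a log2 fold change of -0.60 (SE 0.26), and Fen1, the nuclease of lagging-strand synthesis, of -0.94 (SE 0.44). Fen1 likewise shares exon bases with a far more abundant gene on the other strand, Tmem258.

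Among the other mitosis genes, Cdca8 encodes borealin, a partner of Aurkb and Birc5 at the centromere. It was at 0.160, 0.312 and 0.266 CPM in KO 1, 2 and 3, against 0.642, 0.874 and 0.494 CPM in controls 1, 2 and 3 (log2 fold change -1.42, SE 0.46, edgeR adjusted p = 0.544). Ncapg, of the condensin complex, averaged 0.249 ± 0.166 CPM in KO and 0.606 ± 0.0316 CPM in controls (SD, n = 3 each, log2 fold change -1.38, SE 0.50). Both had 18 or fewer counts in every library. Each shares exon bases with a more abundant gene on the other strand, Cdca8 with 9930104L06Rik and Ncapg with Lcorl. The reads of Cdca8 and Ncapg thus cannot be assigned with certainty. Pttg1, the securin that holds back separase, averaged 4.42 ± 0.452 CPM in KO and 5.40 ± 0.370 CPM in controls (SD, n = 3 each, log2 fold change -0.30, SE 0.16). Hjurp, the chaperone of the centromeric histone, was higher in KO at 17.7 ± 0.692 CPM, against 15.7 ± 0.124 CPM in controls (SD, n = 3 each, log2 fold change 0.18, SE 0.091, edgeR adjusted p = 0.726).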

How the data were processed

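Islet RNA of both groups was read as 6 libraries, 3 KO and 3 control, prepared with a kit for mRNA according to the labels. The authors deposited a table of raw counts per gene. The submitters' processing notes name STAR 2.7.9, featureCounts 2.0.0 and the builds GRCm38.p6 and mm10. Whether reads were counted by strand, how multi-mapped reads were treated and which annotation was used is not given in the sources used here. Counts of overlapping genes and of near-identical copies are therefore uncertain. In the deposited table the 3 KO columns have an added ending whose meaning the labels leave out.

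Symbols came from a gene name table that matched 55141 of the 55401 identifiers. Genes were kept by filterByExpr (minimum count 10, minimum total 15), and 14212 were tested with edgeR 4.0.16 (R 4.3.3), using TMM factors, glmQLFit and glmQLFTest with genotype as the only term, two-sided, with Benjamini-Hochberg adjustment over all genes and a threshold of 0.05. Standard errors and 95% intervals came from that fit. Levels are CPM scaled by TMM factors, divided by the exon length in the deposited table where genes are compared with each other. The library totals, from 15026094 to 25299689 counts, set the precision of low genes, and Poisson intervals cover counting error only. No 2 libraries agreed within sampling noise (lowest chi-square per degree of freedom 14.3).

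The members, named by symbol with no threshold on a value, and the lists were chosen with earlier results of these data known. All members are reported, with the 4 genes of the smallest p from each of the lists of other replication and other mitosis genes. Alternatives were RLE normalization, no filter, a replicate block, each library left out, an acinar and a ribosomal RNA covariate, DESeq2 1.42.0 and limma-voom 3.58.1 without and with sample quality weights. The test was tested on simulated data, where it recovered 69.5% of genes changed by a log2 fold change of 1 and 97.9% of those changed by 2, with 4.24% of calls false. The changed genes were drawn from all tested genes, with a median of 1318.5 counts over the 6 libraries. Medians were 457 counts for S phase and 136 for mitosis members, so these rates do not carry over to them. The replicate numbers were checked for pairing, and no pairing was assumed. Promoter windows are those of RefSeq. Tables were made with pandas 2.3.3 under Python 3.11.15, intervals with SciPy 1.17.1 and figures with matplotlib 3.10.9.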

Additional observations from a re-analysis of the deposited data

How the results depend on the processing

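The number of genes called was 10, and 10 again with RLE normalization. It was 300 without the filter on low counts, 47 with the acinar covariate, 49 with DESeq2, 31 with sample quality weights, 6 with limma-voom, 0 with the ribosomal RNA covariate (Bub3 then at an adjusted p of 0.9999), and from 2 up to 6 when a library was dropped, which also lowers the number of samples. With the replicate block it was 36, and no member passed. Same-numbered KO and control libraries deviated together at correlations of 0.16, -0.16 and 0.14, and differently numbered ones at -0.24 to 0.16. These values gave no clear sign of pairing, but with 3 libraries per group they cannot exclude it. Called S phase members stayed at 0 in every alternative. Called mitosis members were 1, Bub3, without the filter, with the acinar covariate, with DESeq2 and with sample quality weights, and 0 in the other alternatives. The cause of these changes was not tested.

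The S phase median of -0.11 became 0.095 with the ribosomal RNA covariate, and -0.18 to -0.046 when a library was dropped. The mitosis median of -0.27 became -0.45 with sample quality weights. It ran from -0.53 to -0.21 when a library was dropped, over the members that passed the filter in each fit. Leaving out Bub3, which was added after seeing the data, gave -0.33, and counting Ccna2 with the S phase members moved neither median beyond its spread between libraries. Counts of negative members, also added after seeing the data, stayed within 1.5 times throughout. Where a library was dropped, they too were taken over the members that passed the filter in that fit. The members lower at an unadjusted p under 0.05 numbered 0 to 4 in the S phase set and 0 to 8 in the mitosis set over all alternatives, with the highest values under sample quality weights.

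Of the 550 single-gene values under alternatives, 526 kept their direction and side of the threshold, 4 newly passed (all Bub3) and 20 changed sign, none of them past the threshold. With the ribosomal RNA covariate the signs of Mcm4 (0.13), Rrm1 (0.095), Ccnb1 (0.20), Ccnb2 (0.29) and Cenpf (-0.27) changed. Among fits that drop a library, log2 fold changes crossed 0 for Cdk2 (-0.038 to 0.33), Ccne1 (-0.030 to 0.59), Mcm6 (-0.042 to 0.13), Rrm2 (-0.16 to 0.21), Ccnb2 (-0.75 to 0.0071), Bub1b (-0.36 to 0.26), Aurka (-0.41 to 0.040), Cenpf (-0.16 to 0.38) and Foxm1 (-0.10 to 0.14). Bub1b was also positive with the replicate block (1.71e-04), the acinar covariate (0.014) and limma-voom (0.053). Mitosis members had fewer counts and wider errors than S phase members, and Bub1, Aurkb and Birc5 did not reach the counts the test asks for.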
